A study of Mus musculus with 9 samples.

Results

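The genes described here are those of the mouse major histocompatibility complex (MHC, called H2 in the mouse) and of the machinery that cuts, transports and loads peptides for it. The members were all 43 gene rows whose symbol begins with H2-, together with 16 genes named one by one, B2m, Tap1, Tap2, Tapbp, Tapbpl, Psmb8, Psmb9, Psmb10, Psme1, Psme2, Erap1, Nlrc5, Calr, Pdia3, Cd74 and Ciita, which gave 59 of the 23282 gene rows. They fell into 46 genes of the class I pathway, 12 of the class II pathway and 1 gene of another function that lies in the same region, H2-Ke6. The genes were measured in RAW264.7 cells, a macrophage line that by the labels comes from the BALB/c strain and was used at passage 30, and that forms osteoclast-like cells under RANKL, a cytokine that sets off osteoclast formation. There were 3 groups of 3 libraries each, treated for 4 days: RANKL alone at 50 ng/mL (the negative control), RANKL with surface proteins extracted from the bacterium Propionibacterium freudenreichii MJ2 at 10 µg/mL, and heat-killed MJ2 at 10000000 cells/mL. RANKL at 50 ng/mL was recorded for the cultures with heat-killed MJ2 as well, since the treatment protocol lists all agents together. Whether each of these cultures received RANKL is not said in its own label. A single cell line stands behind all 9 libraries, and nothing says that libraries of a group came from separate cultures, so p-values measure the spread between these libraries, which may be technical.

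Class I molecules show peptides from the inside of the cell to cytotoxic T cells. The proteasome, whose subunits Psmb8, Psmb9 and Psmb10 form the immunoproteasome, cuts proteins into peptides, the transporter Tap1/Tap2 carries these into the endoplasmic reticulum, and tapasin (Tapbp), the tapasin-related protein Tapbpl, calreticulin (Calr) and Pdia3 help to fit them into a heavy chain that is held by β2-microglobulin (B2m). Class II molecules, made by macrophages, dendritic cells and B cells, show peptides from ingested material, are guarded by the invariant chain (Cd74) until the peptide is in place, and depend on the transactivator Ciita. The transactivator Nlrc5 plays the corresponding part for class I genes, and both act at a promoter module of X and Y boxes.

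By 3′-end sequencing each library held between 5930926 and 6503682 adjusted reads, which are the deposited log2 values turned back into a linear scale by raising 2 to the value and subtracting 1. One read is drawn from the 3′ end of each mRNA, so a level does not grow with the length of the transcript. The ribosomal RNA gene Rn45s took 8.91 to 12.4% of the adjusted reads. The 8 macrophage markers summed to between 15391 and 18836 adjusted reads in every library, a sum that joins opposite changes. Of the 7 that were tested, 4 rose and 1 fell by limma with surface proteins, 3 rose with heat-killed MJ2, and Mertk was listed at 0 throughout. Of all genes tested, 10.2% passed as higher and 7.32% as lower with surface proteins, and 3.37% as higher with heat-killed MJ2. With surface proteins the log2 fold changes of these, named after their values were seen, were 6.71 for Fcgr1 (SE 0.83, adjusted p 0.0031), 3.81 for Adgre1 (SE 0.53, adjusted p 0.0046), 3.01 for Itgam (SE 0.16, adjusted p 2.3e-04), 2.48 for Lyz2 (SE 0.47, adjusted p 0.0121) and -1.47 for Csf1r (SE 0.20, adjusted p 0.0039). The osteoclast markers summed to 20787 to 32828 with RANKL alone, 13717 to 15873 with heat-killed MJ2 and 5236 to 7770 with surface proteins. Of the 7 tested, 6 fell by limma with surface proteins and 3 with heat-killed MJ2, beside 7.32% and 0.897% of all genes tested. With heat-killed MJ2 this sum too joins opposite changes, as Mmp9, named after its values were seen, had a log2 fold change of 0.58 (SE 0.32, adjusted p 0.337). Markers of other cells that carry MHC molecules were low. The 5 B cell genes summed to at most 10.7 adjusted reads in any library, with Ms4a1 and Pax5 listed at 0 throughout. The 6 dendritic cell genes summed to between 21.5 and 46.9, with Flt3 and Cd209a listed at 0. Xcr1, however, stood at 8.67 to 29.7 adjusted reads and Zbtb46 reached 18.5, both named after their values were seen. These 2 genes had enough reads to be tested against RANKL alone.

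Of the 59 members, 14 were listed at 0 in all 9 libraries, 13 were above 0 but stayed under 10 adjusted reads in every library, and 32 reached 10 in at least 1. A count of 0 allows up to 3 reads, and 21 members never went above that limit. The members that were listed at 0 comprised 12 class I heavy chain genes, among them most of the H2-M cluster, and the class II genes H2-Ob and H2-Eb2. In each comparison a gene had to reach 10 adjusted reads in no fewer than 3 of the 6 libraries, which left 28 members to be tested, of which 24 belonged to class I, 3 to class II and 1 was H2-Ke6. In no comparison did a member pass the filter through 1 group alone. The reads were concentrated in few genes, since Calr, B2m, H2-D1 and Pdia3 together held 76.6 to 77.8% of all member reads with RANKL alone, 74.1 to 76.9% with heat-killed MJ2 and 79.9 to 82.1% with surface proteins.

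Promoter stretches of the members are shown first because both transactivators are known to act at the X and Y boxes and because interferon acts on several of these genes through short promoter motifs. The RefSeq table for GRCm38.p6, a build taken from the C57BL/6 strain and not from BALB/c, held 46 windows for 42 of the 59 members, each running from 250 bases before to 50 bases after a transcription start. The core letters of the X2 box, TGACG, stood on either strand in 18 of 36 class I windows, 1 of 9 class II windows and 20.8% of all 32851 windows, and those of the Y box, ATTGG, in 27 of 36 class I windows, 8 of 9 class II windows and 37.4% of all windows. TGACG followed by ATTGG in the direction of the gene, with their first letters 24 to 26 bases apart, was found in 6 class I windows, in 1 class II window and in 0.116% of all windows. That spacing was chosen after the positions of the motifs in the members had been seen. The pair is printed in capitals in 90-base stretches, read in the direction of the gene, for every member that has it, with H2-K1 shown once for its pair of overlapping windows.
B2m, chr2:122147574-122147663, plus strand: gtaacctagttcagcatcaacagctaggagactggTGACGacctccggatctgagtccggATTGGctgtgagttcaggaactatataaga
H2-D1, chr17:35262958-35263047, plus strand: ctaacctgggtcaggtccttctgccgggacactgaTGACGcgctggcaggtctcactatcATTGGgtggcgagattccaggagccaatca
H2-K1, chr17:34000334-34000423, minus strand: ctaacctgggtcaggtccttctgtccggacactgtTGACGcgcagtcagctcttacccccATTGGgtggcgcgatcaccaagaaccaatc
H2-M3, chr17:37270153-37270242, plus strand: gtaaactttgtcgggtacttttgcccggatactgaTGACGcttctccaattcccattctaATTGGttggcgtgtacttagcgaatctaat
H2-Q7, chr17:35439056-35439145, plus strand: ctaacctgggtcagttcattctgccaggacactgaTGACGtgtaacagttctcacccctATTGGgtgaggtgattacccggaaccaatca
H2-Aa, chr17:34287843-34287932, minus strand: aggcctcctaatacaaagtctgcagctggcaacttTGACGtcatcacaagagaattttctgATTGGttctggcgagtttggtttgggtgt

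The letters GAAA followed after any 2 bases by GAAA again, the core of the interferon-stimulated response element searched on both strands, stood in 5 of 36 class I windows, in 0 of 9 class II windows and in 3.44% of all windows. Those of the gamma-activated site, TTCNNNGAA, stood in 3 of 36 class I windows, 1 of 9 class II windows and 8.3% of all windows. Capitals mark the first of these in the stretch of B2m and the second in that of Psmb8, the immunoproteasome subunit whose level is given below, both read in the direction of the gene.
B2m, chr2:122147528-122147567, plus strand: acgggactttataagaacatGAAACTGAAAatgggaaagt
Psmb8, chr17:34198078-34198117, plus strand: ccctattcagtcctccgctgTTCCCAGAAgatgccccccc
A matching stretch of letters is a description of the reference strain and no evidence that a factor was bound.

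Tap1 and Psmb9 lie head to head, and their RefSeq starts are 226 bases apart. The 225 bases between both starts, which they share as a promoter, are printed in the direction of Tap1, with the X2 letters and the Y letters, the latter on the opposite strand as CCAAT, in capitals.
Between Psmb9 and Tap1, chr17:34187331-34187555, plus strand: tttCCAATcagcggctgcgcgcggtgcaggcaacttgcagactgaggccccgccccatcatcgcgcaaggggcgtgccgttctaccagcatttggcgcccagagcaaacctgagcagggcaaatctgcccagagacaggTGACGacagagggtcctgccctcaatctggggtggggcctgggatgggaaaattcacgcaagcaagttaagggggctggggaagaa

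The summed share of the members in each library differed between the groups. Class I members took 0.380, 0.402 and 0.382% of the adjusted reads in the 3 libraries with RANKL alone, 0.521, 0.561 and 0.536% with heat-killed MJ2, and 0.669, 0.709 and 0.723% with surface proteins. Class II members took 0.0162, 0.0165 and 0.0162% with RANKL alone, 0.0225, 0.0234 and 0.0223% with heat-killed MJ2, and 0.0360, 0.0542 and 0.0437% with surface proteins. The groups did not overlap in either sum, RANKL alone being lowest and surface proteins highest, but a few genes carried this order. Without Calr and Pdia3, which serve folding in general, the class I members took 0.219 to 0.240% with RANKL alone, 0.330 to 0.390% with heat-killed MJ2 and 0.344 to 0.403% with surface proteins, so that the treated groups overlapped while both stayed above the control. Without Cd74 the class II members took 0.00188 to 0.00341%, 0.00225 to 0.00334% and 0.00150 to 0.00421% in the same order of groups, and all groups overlapped. With 3 libraries against 3, an exact two-sided permutation test cannot give a p below 0.1, so these sums are given without one. In RNA from a whole culture, more cells that express a gene and more mRNA per cell cannot be told apart.

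**Figure D1:**
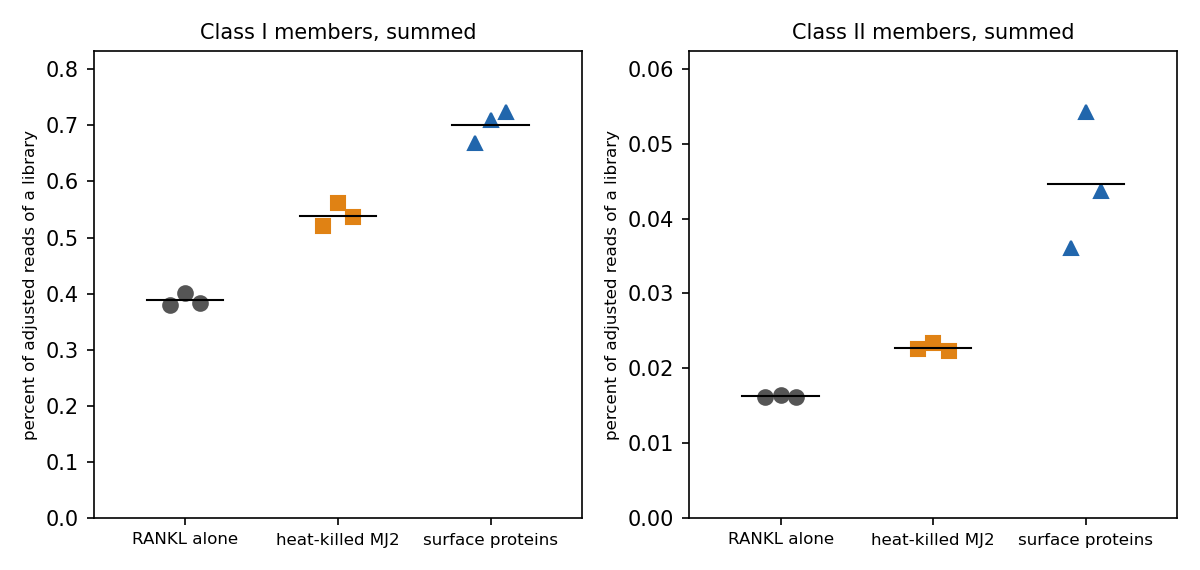
Share of the adjusted reads of each library, in percent, taken by the 46 class I members (left) and the 12 class II members (right). Points are libraries, 3 in each group, and lines are group means; class I shares ran from 0.380% with RANKL alone to 0.723% with surface proteins.

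Surface proteins against RANKL alone asked which of these genes respond to the bacterial proteins in cells under RANKL. By limma over all 10874 genes tested, where a call took a Benjamini-Hochberg adjusted p below 0.05 and a change of 2-fold or more, 8 members were higher and 0 were lower, while at an unadjusted p under 0.05, whatever the fold, the numbers were 15 and 1 of 28, beside 22.1% and 20.1% of all genes tested (42.3% in either direction). The 8 calls were the class I genes Tapbpl, Nlrc5, Tap1, Pdia3, H2-D1, H2-T24 and Calr and the class II gene Cd74. Thus 7 of 24 class I members passed as higher, against 10.2% of all genes tested, while 7.32% of all genes passed as lower and 17.5% in either direction. A further 6 class I members passed on the adjusted p but fell short of the fold change, namely B2m, H2-K2, H2-Q9, H2-T22, H2-T9 and Psmb8. The median log2 fold change of the 24 class I members was 0.78, with a range from -0.17 to 1.94, beside a median of -0.0077 over all genes tested. All 3 treated libraries lay above all 3 control libraries in 17 of the 24, which was so for 24.7% of all genes tested.

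Heat-killed MJ2 against RANKL alone gave fewer calls in the whole table, and by the same limma test 4 members passed as higher and 0 as lower, or 16 and 1 of 28 at an unadjusted p under 0.05, where 12% and 10.6% of all genes tested stood (22.6% in either direction). The 4 calls were H2-K2, H2-Q9, Psmb8 and Nlrc5, all of class I, or 4 of 24 against 3.37% of the 10814 genes tested that were higher and 0.897% that were lower, 4.26% in all. The median log2 fold change of class I members was 0.66, with a range from 0.14 to 1.56 and all 24 above 0, beside -0.0042 over all genes. In 20 of the 24 all treated libraries lay above all control libraries, as in 15.4% of all genes tested, while in 0 of the 24 they lay below, as in 14.7%. H2-D1 passed on the adjusted p alone, and Tap1, with the highest log2 fold change of the 28 members in this comparison, missed it at an adjusted p of 0.0507. Most of these calls did not hold with 5 libraries in place of 6, while the log2 fold changes moved little. H2-K2 and Nlrc5 lost theirs whichever library was left out, with log2 fold changes from 0.93 to 1.19 and from 0.91 to 1.27 and adjusted p values from 0.0599 to 0.111 and from 0.0648 to 0.139. Psmb8 kept its call only without heat-killed MJ2 replicate 3, its log2 fold change running from 0.98 to 1.23 and its adjusted p up to 0.0990, and H2-Q9 only without RANKL replicate 1 or 2, with log2 fold changes from 0.94 to 1.09 and an adjusted p up to 0.0807. Over all genes, 81 to 347 passed when 1 library was left out, in place of 461.

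Surface proteins against heat-killed MJ2 compared the 2 treatments directly. Tapbpl and Cd74 passed as higher with surface proteins and 0 members as lower by limma, against 5.08% of the 10916 genes tested that were higher and 4.97% that were lower, 10.1% in all. At an unadjusted p under 0.05, 4 of the 28 members were higher and 3 lower, shares below the 18.6% and 16.6% of all genes tested (35.3% in either direction). Calr and Pdia3 passed on the adjusted p alone. The class I members were split evenly, 12 above and 12 below 0, with a median log2 difference of 0.012 beside 0.031 over all genes. In 4 of the 24 all surface protein libraries lay above all heat-killed MJ2 libraries, as in 22.2% of all genes tested, and in 3 they lay below, as in 20.1%. The comparisons with RANKL alone share its 3 libraries, so their values for a gene are given side by side below and their likeness is not counted as a result.

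**Figure D2:**
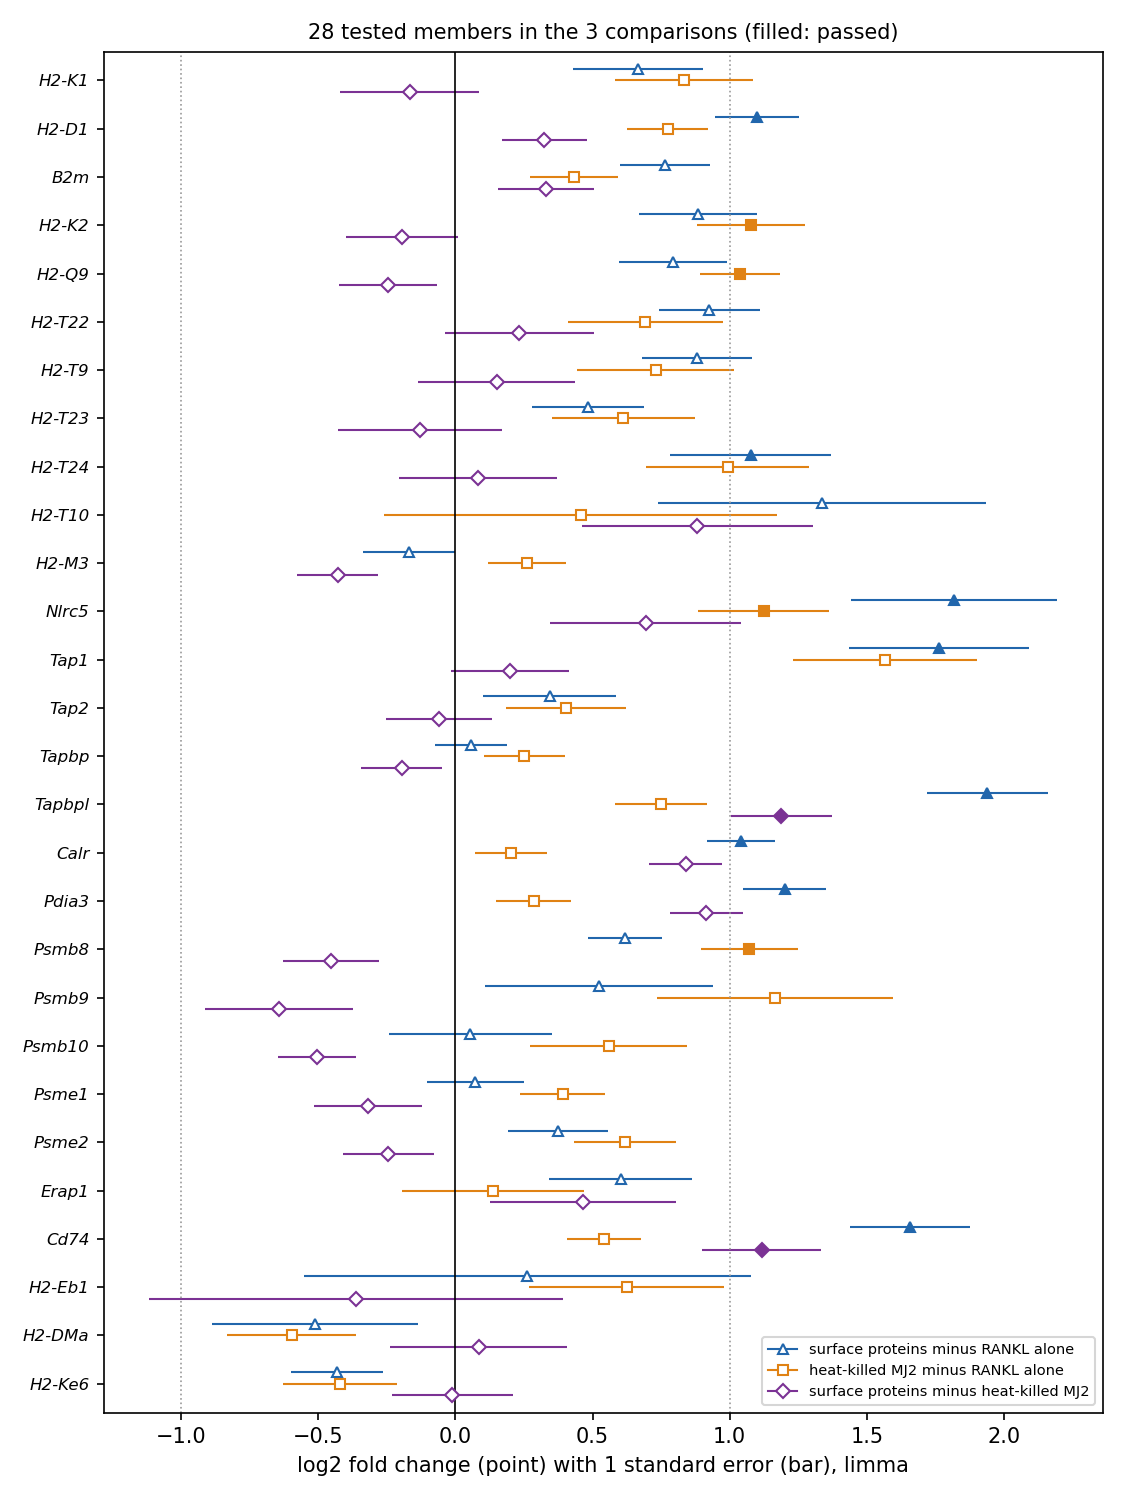
Log2 fold change (points) with 1 standard error (bars) from limma for the 28 tested members in the 3 comparisons, 3 libraries against 3 in each. Filled points passed the adjusted p and the fold change; dotted lines mark a fold change of 2. The largest value is that of Tapbpl, 1.94 for surface proteins minus RANKL alone.

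Nlrc5 (chr8:94434356-94527272, plus strand), the class I transactivator, was a low gene in all groups. It stood at 31.8, 28.1 and 18.8 adjusted reads with RANKL alone, at 48.1, 67.7 and 56.9 with heat-killed MJ2 and at 106, 137 and 54.9 with surface proteins. Every treated library lay above every control library, while the 2 treated groups overlapped through surface protein replicate 3. It rose by a log2 fold change of 1.82 with surface proteins (SE 0.38, adjusted p 0.0161) and by 1.12 with heat-killed MJ2 (SE 0.24, adjusted p 0.0496). The call for surface proteins held without each library in turn, with log2 fold changes between 1.54 and 2.19. That for heat-killed MJ2 was lost without any 1 library. It was also lost under quantile normalization (log2 fold change 0.98, adjusted p 0.0574), without a filter (0.0953) and with a constant of 0.1 before the log (0.0583). The same held with a robust and trended variance (0.0678), with the replicate block (0.105) and with 1 fit over all 9 libraries (0.0861). Its adjusted p ran from 0.0384 to 0.139 over all alternatives.

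Among the classical heavy chains, H2-D1 (chr17:35262730-35267499, plus strand) was the most abundant. Its adjusted reads were 3379, 3567 and 3989 with RANKL alone, 6075, 7003 and 5661 with heat-killed MJ2 and 6979, 8682 and 7808 with surface proteins. Both treated groups lay wholly above the control. H2-D1 rose by 1.10 on the log2 scale with surface proteins (SE 0.15, adjusted p 0.0044). With heat-killed MJ2 its log2 fold change was 0.77 (SE 0.15, adjusted p 0.0379), under the required fold. H2-K1 (chr17:33996017-34000347, minus strand), the other classical heavy chain with reads, stood at 564, 656 and 427 adjusted reads with RANKL alone, at 934, 1263 and 756 with heat-killed MJ2 and at 941, 1003 and 669 with surface proteins. All treated libraries were above all control libraries here too, although the lowest treated and the highest control library were 669 and 656. Its log2 fold changes of 0.67 with surface proteins (SE 0.24, adjusted p 0.0813) and 0.83 with heat-killed MJ2 (SE 0.25, adjusted p 0.116) did not pass. H2-L, a class I gene known from BALB/c mice and absent from the C57BL/6 reference, never exceeded 2.94 adjusted reads, and how reads of such strain-specific genes were assigned by the authors is not given in the sources used here.

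B2m (chr2:122147686-122153083, plus strand), the light chain shared by all class I molecules, gave 5587, 6635 and 5739.7 adjusted reads with RANKL alone, 7131, 9422 and 7787 with heat-killed MJ2 and 8712, 11159 and 10719 with surface proteins. The groups kept the order of the summed share, and the treated groups overlapped through heat-killed MJ2 replicate 2. The log2 fold change was 0.76 with surface proteins (SE 0.16, adjusted p 0.0174) and 0.43 with heat-killed MJ2 (SE 0.16, adjusted p 0.183), neither of which reached the required fold.

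Of the other class I heavy chain genes, 29 in all, 8 were tested. H2-Q9, a gene of the Qa region, gave 136, 137 and 109.7 adjusted reads with RANKL alone, 276, 254 and 255 with heat-killed MJ2 and 199.6, 277 and 194 with surface proteins. It rose by 1.04 on the log2 scale with heat-killed MJ2 (SE 0.15, adjusted p 0.0164), where the 3 libraries lay close together, and had a log2 fold change of 0.79 with surface proteins (SE 0.20, adjusted p 0.0282). H2-K2 (chr17:33974659-33978827, minus strand), which the annotation holds as a transcribed pseudogene, gave 29.0, 20.6 and 27.7 adjusted reads with RANKL alone, 47.1, 54.2 and 64.8 with heat-killed MJ2 and 59.7, 45.1 and 40.6 with surface proteins. It likewise passed with heat-killed MJ2, at a log2 fold change of 1.08 (SE 0.20, adjusted p 0.0335, from 0.0174 to 0.111 over all alternatives), while with surface proteins the value was 0.88 (SE 0.21, adjusted p 0.0259). For both genes the direct comparison of the treatments gave -0.25 (H2-Q9) and -0.19 (H2-K2) and did not pass.

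H2-T24 (chr17:36005695-36020560, minus strand), of the H2-T region, gave 36.5, 62.6 and 37.6 adjusted reads with RANKL alone, 77.7, 124 and 72.6 with heat-killed MJ2 and 120.4, 70.1 and 98.7 with surface proteins. It rose by 1.08 on the log2 scale with surface proteins (SE 0.29, adjusted p 0.0376). That call was lost without RANKL replicate 1 (adjusted p 0.102) or 3 (0.103) and without surface protein replicate 1 (0.0898) or 3 (0.0950), and the adjusted p over all alternatives ran from 0.0199 to 0.103. With heat-killed MJ2 the log2 fold change was 0.99 (SE 0.30, adjusted p 0.114). The remaining tested heavy chains had log2 fold changes from -0.17 to 1.34 with surface proteins and from 0.26 to 0.73 with heat-killed MJ2. The lowest of these, H2-M3, named after its values were seen, was the sole class I member below 0 with surface proteins (-0.17, SE 0.17, adjusted p 0.488).

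**Figure D3:**
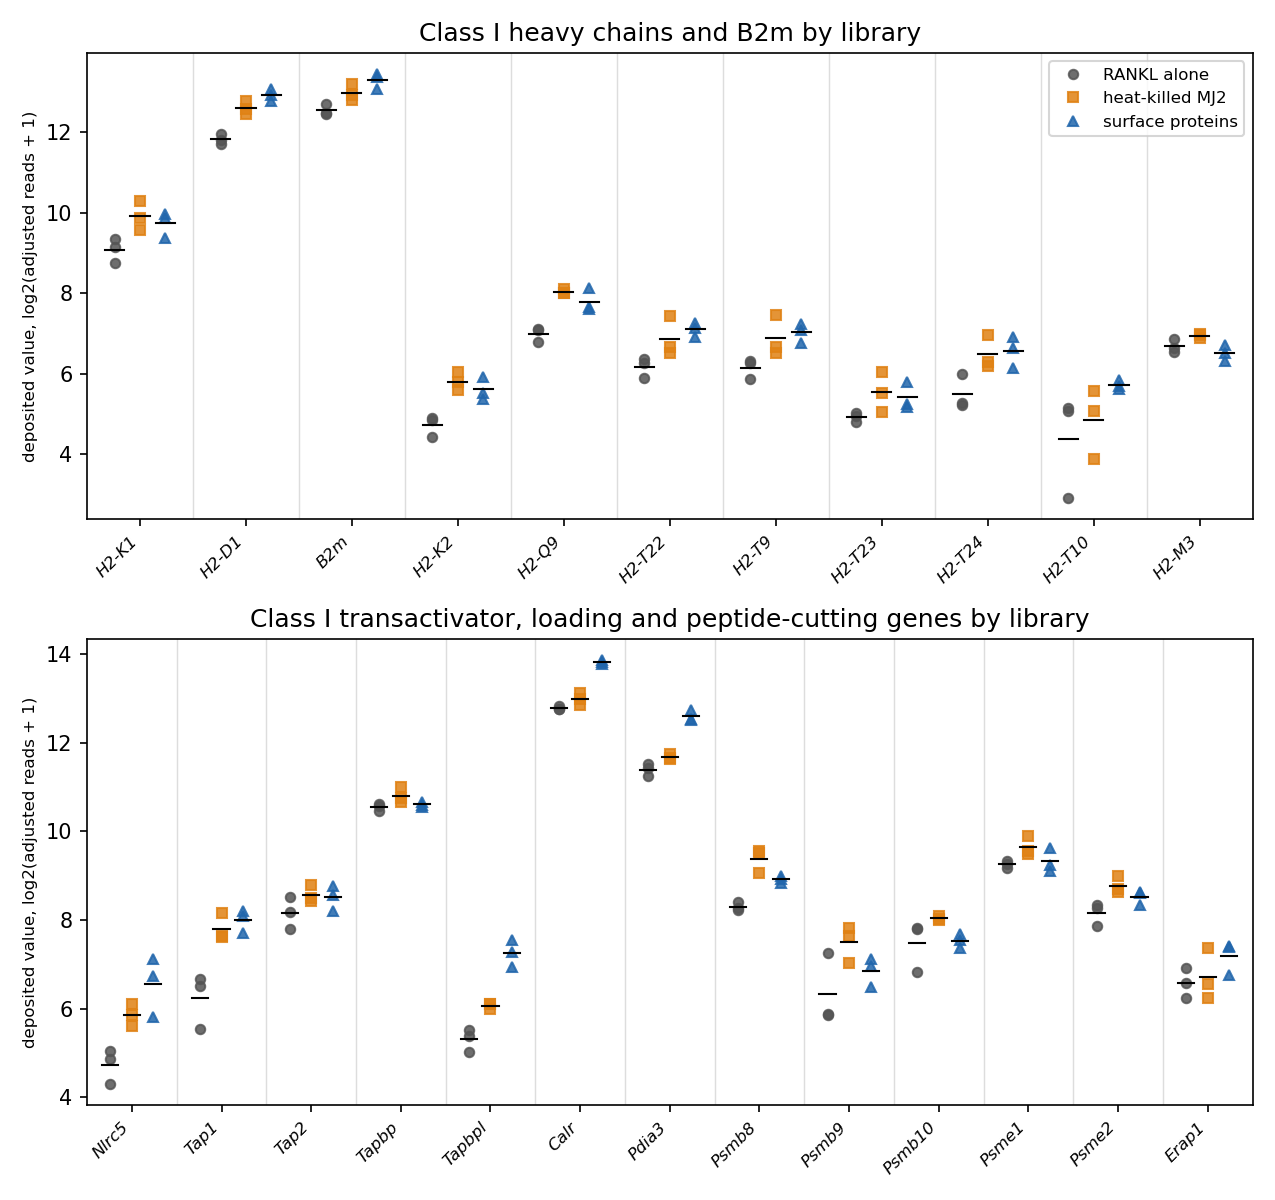
Deposited values, log2 of adjusted reads plus 1, of the 24 tested class I members in each library. Points are libraries, 3 in each group, and short lines are group means; the top panel holds heavy chains and B2m, the bottom panel the transactivator, loading and peptide-cutting genes. In H2-D1, Calr and Pdia3 the surface protein libraries lay above all others or nearly so, while in Psmb8 the heat-killed MJ2 libraries were highest.

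The genes of peptide transport and loading held 4 of the 7 class I calls with surface proteins, out of 6 tested and beside 10.2% of all genes tested that were higher. They were Tapbpl, Tap1 and the general folding factors Calr and Pdia3. Tapbpl (chr6:125223933-125231860, minus strand), the tapasin-related chaperone that edits the peptides bound, gave 44.9, 41.0 and 31.6 adjusted reads with RANKL alone, 67.5, 67.7 and 62.8 with heat-killed MJ2 and 186, 122 and 153 with surface proteins. The 3 groups were fully separate. Its log2 fold change was 1.94 with surface proteins (SE 0.22, adjusted p 0.0024), 0.75 with heat-killed MJ2 (SE 0.17, adjusted p 0.0574) and 1.19 between the treatments (SE 0.18, adjusted p 0.0139). The last of these lost its call without heat-killed MJ2 replicate 1 (adjusted p 0.0556) or 3 (0.0524), and over all alternatives its adjusted p ran from 0.0020 to 0.0556.

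Tap1 (chr17:34187553-34197225, plus strand), a subunit of the peptide transporter, gave 101, 89.6 and 45.5 adjusted reads with RANKL alone, 198, 283 and 195 with heat-killed MJ2 and 209, 273 and 292 with surface proteins. Treated libraries were all above the control, and the treated groups overlapped. Tap1 rose by 1.76 on the log2 scale with surface proteins (SE 0.33, adjusted p 0.0112), and its log2 fold change with heat-killed MJ2 was 1.56 (SE 0.34, adjusted p 0.0507). The second value passed with equal totals (adjusted p 0.0449) and with a constant of 5 before the log (0.0351). It also passed with a robust and trended variance (9.7e-04) and with 1 fit over all 9 libraries (0.0203). Over all alternatives its adjusted p ran from 9.7e-04 to 0.136. Its partner Tap2, named here for comparison after its values were seen, had log2 fold changes of 0.34 (SE 0.24) and 0.40 (SE 0.22), with adjusted p values of 0.325 and 0.335.

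Calr (chr8:84841850-84846934, minus strand) and Pdia3 (chr2:121413775-121438687, plus strand) are general folding factors of the endoplasmic reticulum that also serve in the class I loading complex. Calr, the most abundant member, gave 7230.1, 6998 and 6921 adjusted reads with RANKL alone, 8078, 7418 and 8902 with heat-killed MJ2 and 14582, 14076 and 14878 with surface proteins. Pdia3 gave 2743, 2952 and 2421 with RANKL alone, 3202, 3226 and 3436 with heat-killed MJ2 and 5979, 5812 and 6849.5 with surface proteins. In both genes the surface protein libraries were far above the rest, and the heat-killed MJ2 libraries stood just above the control. The log2 fold change of Calr was 1.04 with surface proteins (SE 0.12, adjusted p 0.0028) and 0.20 with heat-killed MJ2 (SE 0.13, adjusted p 0.417). For Pdia3 it was 1.20 with surface proteins (SE 0.15, adjusted p 0.0032) and 0.29 with heat-killed MJ2 (SE 0.14, adjusted p 0.279). Between the treatments Calr differed by 0.84 (SE 0.13, adjusted p 0.0144) and Pdia3 by 0.92 (SE 0.13, adjusted p 0.0127). Calr lies at the limit of the fold change, and quantile normalization or equal totals put it just under, at 0.99 in both, with adjusted p values of 0.0037 and 0.0035 that lie within the range over all alternatives, 2.8e-07 to 0.0168.

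Other folding factors of the same compartment were followed beside Calr and Pdia3. Of 10 endoplasmic reticulum genes outside the members, 4 rose with surface proteins, 0 passed with heat-killed MJ2 by limma (6 were higher at an unadjusted p under 0.05) and 2 were higher with surface proteins than with heat-killed MJ2. Of all genes tested, 10.2%, 3.37% and 5.08% were called higher in these comparisons, and 12% were higher with heat-killed MJ2 at the unadjusted p. Hspa5, the chaperone BiP, gave 15639.5, 13700.1 and 12809 adjusted reads with RANKL alone, 21633, 20852 and 21188 with heat-killed MJ2 and 70973, 44638 and 53564 with surface proteins. Hspa5 rose by 1.98 on the log2 scale with surface proteins (SE 0.21, adjusted p 0.0019) and had 0.60 with heat-killed MJ2 (SE 0.13, adjusted p 0.0581). The protein disulfide isomerases Pdia4 and Pdia6 rose with surface proteins by 2.06 (SE 0.17, adjusted p 8.9e-04) and 1.40 (SE 0.15, adjusted p 0.0020). The glucosidase subunit Ganab and the translocon subunit Sec61b, named after their values were seen, had log2 fold changes of 0.045 (SE 0.14, adjusted p 0.831) and 0.085 (SE 0.17, adjusted p 0.743) with surface proteins. The summed level of the 10 genes was 34271 to 39206 adjusted reads with RANKL alone, 48409 to 51531 with heat-killed MJ2 and 91714 to 121543 with surface proteins, and its part in the values of Calr and Pdia3 was not tested.

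Among the genes that cut peptides, Psmb8 passed the test. Psmb8 (chr17:34197721-34201454, plus strand) gave 298, 309 and 338 adjusted reads with RANKL alone, 749.7, 729 and 533 with heat-killed MJ2 and 508, 459 and 485 with surface proteins. The 3 groups did not overlap, and the heat-killed MJ2 libraries were highest. Psmb8 rose by 1.07 on the log2 scale with heat-killed MJ2 (SE 0.18, adjusted p 0.0255), had a log2 fold change of 0.62 with surface proteins (SE 0.13, adjusted p 0.0183), and the difference between the treatments was -0.45 (SE 0.18, adjusted p 0.121), which did not pass. Psmb9 (chr17:34181987-34187764, minus strand), which shares its promoter with Tap1, gave 57.1, 58.3 and 152 adjusted reads with RANKL alone, 130.0, 226 and 199 with heat-killed MJ2 and 89.0, 138 and 124 with surface proteins. RANKL replicate 3 stood apart from the other controls, above all surface protein libraries and 1 heat-killed MJ2 library. The log2 fold change of Psmb9 was 0.52 with surface proteins (SE 0.42, adjusted p 0.382) and 1.17 with heat-killed MJ2 (SE 0.43, adjusted p 0.179). Without RANKL replicate 3 the value for heat-killed MJ2 was 1.63, with an adjusted p of 0.0498, and over all alternatives the adjusted p ran from 0.0475 to 0.351.

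Of the 6 peptide-cutting genes, 0 passed the limma test with surface proteins, 1 passed with heat-killed MJ2 (Psmb8) and 0 between the treatments, where their median log2 difference was -0.39 and that of Erap1, a trimming enzyme of the endoplasmic reticulum named after its values were seen, was 0.47 (SE 0.34, adjusted p 0.368). At an unadjusted p under 0.05, 1 was higher with surface proteins, 4 were higher with heat-killed MJ2 and 2 were lower with surface proteins than with heat-killed MJ2, beside 22.1%, 12% and 16.6% of all genes tested. Calls stood at 10.2% of all genes for higher with surface proteins, 3.37% for higher with heat-killed MJ2 and 10.1% in either direction between the treatments. The subunits and activators of the standard proteasome, 17 genes outside the members, gave 0 calls by limma in each of the 3 comparisons (2 higher and 2 lower, 2 and 0, and 0 and 5 at an unadjusted p under 0.05), with median log2 fold changes of -0.068 with surface proteins, 0.20 with heat-killed MJ2 and -0.29 between the treatments.

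The class II pathway was mostly at or near the detection limit. Ciita (chr16:10480059-10528418, plus strand), its transactivator, reached 3.98 adjusted reads in 1 library with RANKL alone and stayed at or below 0.94 in the other 8. H2-Aa and H2-Ab1, the chains of the I-A molecule, were not tested. H2-Aa ranged from 5.57 to 28.7 adjusted reads with RANKL alone, from 5.87 to 10.2 with heat-killed MJ2 and from 5.72 to 25.5 with surface proteins. H2-Ab1 exceeded 10 in heat-killed MJ2 replicate 3 alone, with 15.8. H2-Eb1 (chr17:34305867-34316674, plus strand), a chain of the I-E molecule, gave 60.9, 35.7 and 94.9 adjusted reads with RANKL alone, 89.0, 80.3 and 108 with heat-killed MJ2 and 153, 19.1 and 121 with surface proteins. Surface protein replicate 2 was the lowest of all 9 libraries and the other 2 of its group the highest, so the groups overlapped fully. The log2 fold changes of 0.26 with surface proteins (SE 0.81, adjusted p 0.833) and 0.62 with heat-killed MJ2 (SE 0.35, adjusted p 0.355) did not pass, and the first fell to -0.28 without surface protein replicate 1 and was 1.18 without replicate 2.

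**Figure D4:**
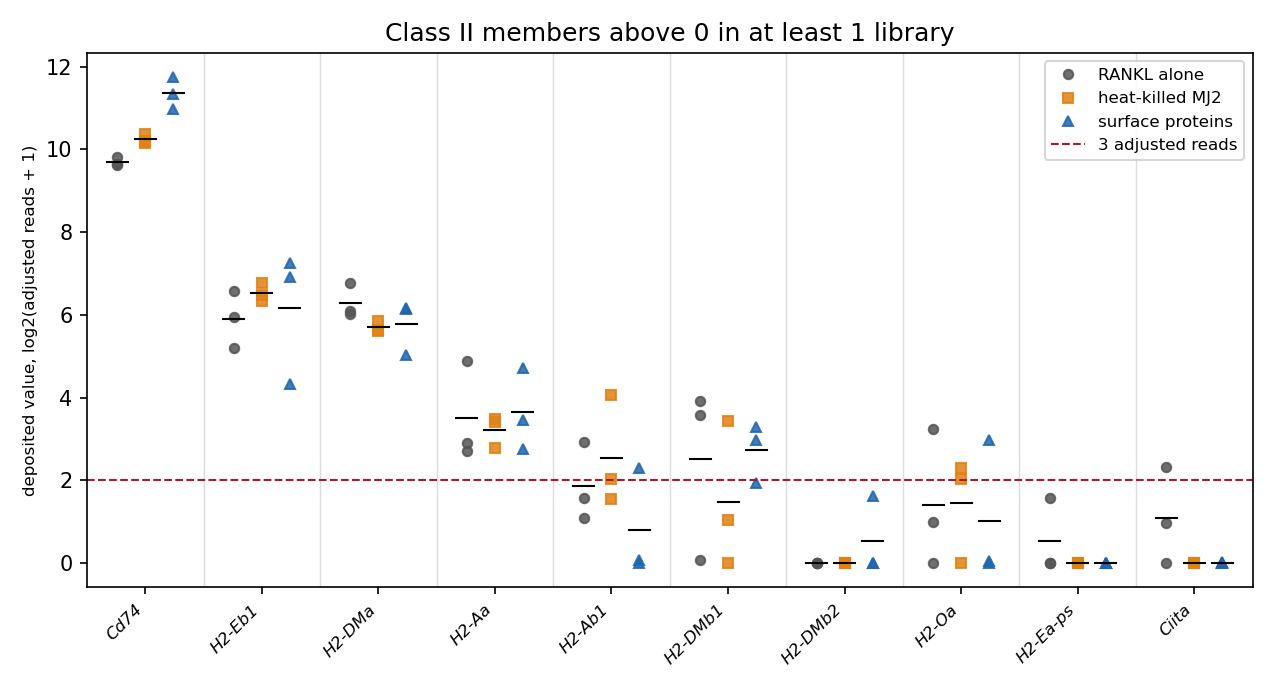
Deposited values, log2 of adjusted reads plus 1, of the 10 class II members above 0 in at least 1 library. Points are libraries, 3 in each group, short lines are group means, and the dashed line marks 3 adjusted reads. Cd74 lay highest, with the 3 groups apart.

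Cd74 (chr18:60803848-60812652, plus strand), the invariant chain, was the one class II gene at a high level. It gave 806, 899 and 789 adjusted reads with RANKL alone, 1182, 1315 and 1138 with heat-killed MJ2 and 2015, 3427 and 2611 with surface proteins. The 3 groups were separate, with surface proteins highest. Cd74 rose by 1.66 on the log2 scale with surface proteins (SE 0.22, adjusted p 0.0038), and the call held without each library in turn, with log2 fold changes between 1.46 and 1.85. With heat-killed MJ2 the log2 fold change was 0.54 (SE 0.13, adjusted p 0.0741). Between the treatments the difference was 1.12 (SE 0.22, adjusted p 0.0228), a call that was lost without heat-killed MJ2 replicate 1 (adjusted p 0.0783) or 3 (0.0765) and without surface protein replicate 2 (0.0511) or 3 (0.0615), with adjusted p values from 1.4e-04 to 0.0783 over all alternatives. Besides Cd74 and H2-Eb1, the peptide exchange gene H2-DMa was the only class II member tested, and its log2 fold changes of -0.51 with surface proteins (SE 0.37, adjusted p 0.343) and -0.60 with heat-killed MJ2 (SE 0.23, adjusted p 0.202) did not pass.

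The genes that supply and regulate class II molecules did not share 1 direction. Of 16 tested, 4 rose and 1 fell with surface proteins, 1 rose with heat-killed MJ2 and 0 passed the limma test between the treatments (7 higher and 4 lower at an unadjusted p under 0.05), and the median log2 fold change was -0.14 with surface proteins. The shares of all genes tested were 10.2% higher and 7.32% lower with surface proteins, 3.37% higher with heat-killed MJ2 and, at the unadjusted p between the treatments, 18.6% higher and 16.6% lower. Ctsl, the lysosomal protease cathepsin L that can cut the invariant chain, gave 568, 842 and 484 adjusted reads with RANKL alone, 2411, 4251 and 2799 with heat-killed MJ2 and 4472, 6529.6 and 5126 with surface proteins. It rose by 3.11 with surface proteins (SE 0.26, adjusted p 9.1e-04) and by 2.32 with heat-killed MJ2 (SE 0.30, adjusted p 0.0121), on the log2 scale, the second of which had an adjusted p of 0.0550 without heat-killed MJ2 replicate 3. The protease Ctsd and the ubiquitin ligase March8, which removes class II molecules from the cell surface, rose with surface proteins by 1.69 (SE 0.28, adjusted p 0.0077) and 1.27 (SE 0.14, adjusted p 0.0020). Cathepsin S (Ctss), the main protease of the invariant chain in macrophages and B cells, had a log2 fold change of 0.64 with surface proteins (SE 0.22, adjusted p 0.0763) and of 0.033 with heat-killed MJ2 (SE 0.22, adjusted p 0.946). Rfx5, a subunit of the factor that binds the X box, had log2 fold changes of -0.75 (SE 0.29, adjusted p 0.0964) and -0.50 (SE 0.18, adjusted p 0.171), the first of which passed without surface protein replicate 3 (-1.03, adjusted p 0.0302). The gene that fell was the tetraspanin Cd9, named after its values were seen, at -1.14 (SE 0.16, adjusted p 0.0043).

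Interferon signalling is the best known inducer of class I genes, so its genes were followed as well. Of 17 listed, Ifnb1 and Ifng were at 0 in every library, 15 were tested, and 7 of these rose with surface proteins, 4 with heat-killed MJ2 and 3 were higher with surface proteins than with heat-killed MJ2, with 0 lower in each by limma, also at an unadjusted p under 0.05. The calls stand beside 10.2%, 3.37% and 5.08% of all genes tested that were higher in these comparisons. Called lower were 7.32%, 0.897% and 4.97% of all genes tested, and 20.1%, 10.6% and 16.6% were lower at the unadjusted p. Irf7, a transcription factor of the interferon response, gave 43.0, 55.1 and 16.8 adjusted reads with RANKL alone, 359, 765 and 293 with heat-killed MJ2 and 720.1, 703 and 527 with surface proteins. It rose by 4.19 (SE 0.44, adjusted p 0.0019) with surface proteins and by 3.62 (SE 0.54, adjusted p 0.0192) with heat-killed MJ2, on the log2 scale. Irf9, the DNA-binding part of the type I interferon factor, rose by 1.73 (SE 0.16, adjusted p 0.0014) and 1.38 (SE 0.18, adjusted p 0.0130), on the same scale. The inhibitor Socs1 gave 1.79, 7.65 and 4.93 adjusted reads with RANKL alone, 28.6, 24.2 and 57.0 with heat-killed MJ2 and 30.4, 15.3 and 25.2 with surface proteins. It passed the filter on low values through the treated libraries alone and so had to differ, for which reason its log2 fold changes of 2.18 with surface proteins and 2.75 with heat-killed MJ2 are given without a test, and without it 6 of 14 interferon genes rose with surface proteins and 3 with heat-killed MJ2. Irf8, a factor of macrophages and dendritic cells, rose by 2.83 with surface proteins (SE 0.46, adjusted p 0.0076) and had 1.83 with heat-killed MJ2 (SE 0.50, adjusted p 0.0914), a value that passed without RANKL replicate 2 (adjusted p 0.0436). Between the treatments Irf8 differed by 1.00 (SE 0.23, adjusted p 0.0339), at the limit of the fold change. That call held in 1 of the 6 fits without 1 library, and over all alternatives its adjusted p ran from 5.4e-04 to 0.139. With heat-killed MJ2 the call of Irf7 was lost without any 1 of the 3 treated libraries (adjusted p 0.0553 to 0.0689), and that of Irf9 without replicate 1 (0.0579) or 3 (0.0536) of the treated.

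Irf1, a transcription factor induced by interferon γ, had log2 fold changes of 0.65 with surface proteins (SE 0.23, adjusted p 0.0799) and 0.59 with heat-killed MJ2 (SE 0.19, adjusted p 0.134), and the receptor chain Ifngr1 of -0.15 (SE 0.23, adjusted p 0.651) and -0.26 (SE 0.18, adjusted p 0.453). The part of the interferon genes and of the changes in macrophage and osteoclast markers in the class I values was not tested.

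**Figure D5:**
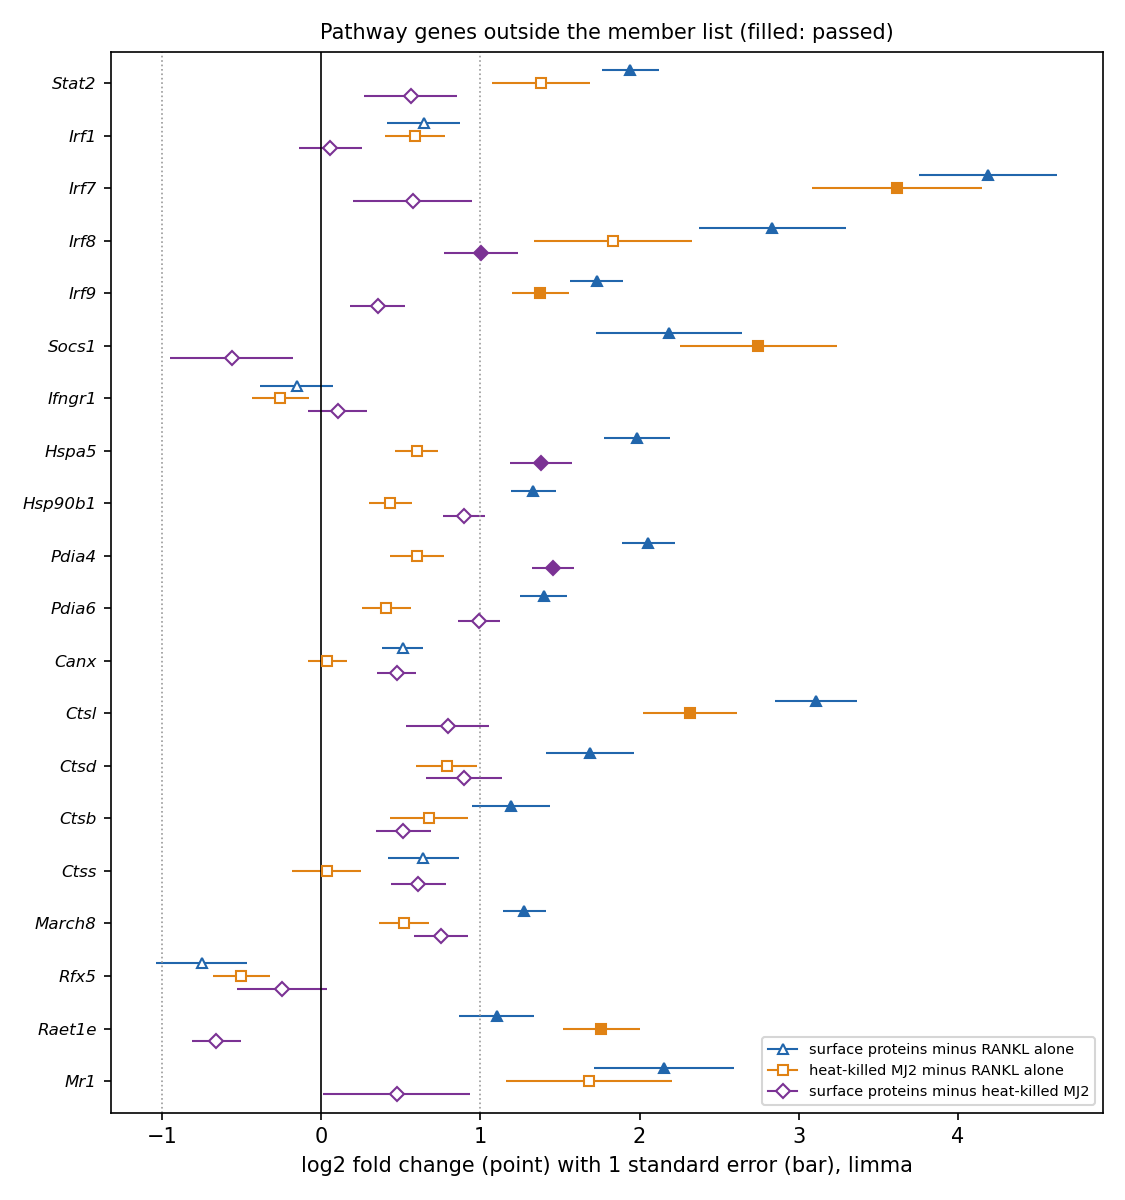
Log2 fold change (points) with 1 standard error (bars) from limma for genes of the same pathways that are not members, 3 libraries against 3 in each comparison. Filled points passed the adjusted p and the fold change, and dotted lines mark a fold change of 2. Irf7 had the highest value, 4.19 for surface proteins minus RANKL alone; Socs1 passed the filter on low values through the treated libraries alone.

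Class I-like genes that lie outside the H2- rows were counted apart. Of 8, 4 were tested, of which 2 rose with surface proteins and 1 with heat-killed MJ2, where 10.2% and 3.37% of all genes tested were higher. Mr1, which shows vitamin B metabolites to innate-like T cells, gave 5.53, 17.3 and 10.9 adjusted reads with RANKL alone, 62.3, 34.8 and 19.6 with heat-killed MJ2 and 32.3, 69.2 and 52.6 with surface proteins, and rose with surface proteins by 2.15 on the log2 scale (SE 0.44, adjusted p 0.0156), or 1.91 with an adjusted p of 0.0530 without surface protein replicate 2. Raet1e, a ligand of the activating receptor NKG2D, gave 73.1, 40.0 and 55.3 adjusted reads with RANKL alone, 178, 171 and 215 with heat-killed MJ2 and 126, 108 and 121 with surface proteins. It rose by 1.76 with heat-killed MJ2 (SE 0.24, adjusted p 0.0153) and by 1.10 with surface proteins (SE 0.24, adjusted p 0.0179), and the 3 groups did not overlap. The first call was lost without any 1 of the heat-killed MJ2 libraries (adjusted p 0.0538 to 0.0676), and the second without RANKL replicate 2 (log2 fold change 0.88) or 3 (log2 fold change 1.11, with the adjusted p at the threshold) and without surface protein replicate 3 (0.0530).

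H2-Ke6 (chr17:34026033-34028060, minus strand), an enzyme gene of steroid and fatty acid metabolism that bears the H2- prefix for its place alone, gave 164, 136 and 152 adjusted reads with RANKL alone, 93.1, 148 and 102 with heat-killed MJ2 and 105, 99.8 and 132 with surface proteins. All surface protein libraries lay below the control, as in 23.7% of all genes tested. Its log2 fold changes of -0.43 with surface proteins (SE 0.17, adjusted p 0.103) and -0.42 with heat-killed MJ2 (SE 0.21, adjusted p 0.297) did not pass.

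Several members resemble each other in sequence, so the reads behind a gene may not be its own. For each tested member the 426 stretches of 75 bases, the read length, in the last 500 bases of its longest GENCODE M21 transcript were compared with all other transcripts, by exact match and in the C57BL/6 reference. None was shared for 20 of the 28 tested members, among them H2-K1, H2-D1, H2-K2, H2-T24, B2m, Tap1, Psmb8, Psmb9, Calr, Pdia3, Nlrc5, H2-Eb1 and Cd74, while 6 had shared stretches. The shares were 100% for H2-Ke6, whose locus overlaps that of Gm20427, 45.1% for Psme2, shared with Psme2b, 15.3% for H2-T23, 7.51% for Tapbpl, 1.64% for Psme1 and 0.704% for H2-T10. No transcript stands under the symbols H2-Q9 and H2-T9. The values of H2-T9 and H2-T22 differed by at most 0.15 on the log2 scale and were equal, within 0.0005, in 3 of 9 libraries, so they may not be separate observations although both are counted above. Without H2-T9, the calls among the then 23 class I members stayed at 7 with surface proteins and 4 with heat-killed MJ2, the groups did not overlap in 16 and 19, and the median log2 fold changes were 0.76 and 0.62. Between the treatments the median was then -0.059, with 11 above and 12 below 0.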

How the data were processed

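Total RNA was made into QuantSeq 3′ mRNA-Seq libraries and read as 75-base single ends by the authors, who applied quantile normalization between samples. Per the labels, Bowtie2, bedtools and mm10 were used, while the annotation and the treatment of shared reads are not given in the sources used here. For every gene row and library the authors deposited a single log2 value. Their sorted columns differ by up to 1.60, so the scaling of the values is not fully known. Group and replicate were taken from the sample titles, and no 2 libraries held identical values. Adjusted reads were computed as 2 to the power of the value, minus 1.

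The deposited log2 values were fitted with limma 3.58.1 (lmFit, eBayes) in R 4.3.3, each comparison on its own 6 libraries and without a block. A gene was tested if 3 or more of the libraries reached 10 adjusted reads. Benjamini-Hochberg adjustment ran over all genes tested, and calls required an adjusted p below 0.05 and a change of 2-fold or more. On data simulated for surface proteins against RANKL alone with 10730 genes, 200 of 200 genes changed by 2 on the log2 scale and 12 of 10530 unchanged genes passed. The changed genes were drawn from those well above the filter, and 1 spread was assumed for all genes. Their change was larger than that of any member called. The simulation therefore does not cover calls near 2-fold or of genes with few reads. Counting at this depth allows up to 3 reads behind a 0, a limit that covers counting error only. Rows were joined, counted and plotted with Python 3.11.15, numpy 2.4.6, pandas 2.3.3 and matplotlib 3.10.9.

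The members and all gene lists were chosen with earlier results of these data known. Named are the members that passed in at least 1 comparison and, whatever their values, H2-K1, H2-D1, B2m, Tap1, Psmb8, Psmb9, Nlrc5, Calr, H2-Aa, H2-Ab1, H2-Eb1, Cd74, Ciita and H2-Ke6, with at most 3 genes per pathway list and comparison, taken by the size of the change, and Irf1, Ifngr1, Ctss and Rfx5. Some genes of the lists are counted but not reported here by name. T and NK cell genes summed to at most 2.89 adjusted reads and fibroblast genes to between 0.86 and 42.8. Alternatives were other scalings, filters, constants before the log, a robust and trended variance in eBayes, a replicate block, thresholds, 1 fit over all libraries and leaving out each library. Sums without Calr and Pdia3 or without Cd74, and counts without H2-T9 or Socs1, were added after seeing the data. Gene positions are those of GENCODE M21 on GRCm38, the build also called mm10, and 55 of the 59 symbols matched.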

Additional observations from a re-analysis of the deposited data

How the results depend on the processing

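For surface proteins against RANKL alone, without a limit on the fold change 3163 genes in place of 1902 and 13 class I members in place of 7 passed. Leaving out each library in turn gave 1357 to 1822 genes, 6 to 8 class I members and 1 class II member in every case. For heat-killed MJ2 against RANKL alone, 461 genes passed, but 267 without a filter on low values, 289 with the replicate block and 799 at an unadjusted p with the 2-fold limit kept, and the 4 class I members became 1 under quantile normalization, 2 without a filter and 0 with the replicate block. Leaving out each library gave 81 to 347 genes, 0 to 1 class I members and 0 class II members. For surface proteins against heat-killed MJ2, without a limit on the fold change 1949 genes in place of 1098 and 3 class I members in place of 1 passed. Leaving out each library gave 362 to 1176 genes and 0 to 1 members of each class. Why these counts moved was not tested, apart from the settings that change the threshold or the number of genes and samples by construction.

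The replicate numbers are not known to mark a shared culture, and same-numbered libraries of different groups deviated together only weakly (r from 0.0179 to 0.106 over 11193 genes, over 0.1 in 1 of 9 pairs), so they were not taken as pairs. Among the named genes the replicate block ended the calls of H2-K2, H2-Q9, Nlrc5 and Psmb8 for heat-killed MJ2, of H2-T24 for surface proteins and of Irf8 between the treatments, and it changed no other call of a gene named here by the rule, leaving aside Socs1, whose values are given without a test.

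Among the named genes, those that changed sign under an alternative had not passed the test. Between the treatments H2-Ke6 went to 0.0021 under quantile normalization and Irf1 to -0.024 with equal totals. Without 1 library the log2 difference between the treatments ran from -0.91 to 0.56 for H2-Eb1, from -0.34 to 0.029 for H2-K1, from -0.14 to 0.19 for H2-Ke6, from -0.093 to 0.32 for H2-T24, from -0.067 to 0.22 for Ifngr1 and from -0.072 to 0.23 for Irf1. The log2 fold change of H2-Eb1 with surface proteins ran from -0.28 to 1.18 and that of Ctss with heat-killed MJ2 from -0.17 to 0.15. Members under 10 adjusted reads in every library, 6 of the 12 class II members among them, are limited by depth.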
